A study of Capra hircus with 12 samples.

Results

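The genes described here are the copper transporters and copper chaperones of the cell, namely the copper-exporting ATPases ATP7A and ATP7B, the SLC31A1 and SLC31A2 transporters, and the chaperones ATOX1, CCS, COX17, SCO1 and SCO2. These 9 genes were chosen by name. ATP7A was picked because its counts were lower in libraries labelled IL-1β + LOXL2, so its values in that contrast are given as a description without a test. Of the 9 genes, 6 have a row under their name among the 28910 genes of the tables, and all 6 had enough counts to be tested. COX17, SCO1 and SCO2 were not analysed here.

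Copper enters most cells through SLC31A1 (CTR1), and carriers hand it on so that little of it is free. ATOX1 passes it to ATP7A and ATP7B, which pump it into the Golgi, where secreted enzymes such as the lysyl oxidases receive it, or out of the cell. CCS loads the cytosolic superoxide dismutase SOD1, and in cartilage and other connective tissue the lysyl oxidases use their copper to start the cross-linking of collagen and elastin.

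RNA was sequenced in 12 libraries of cells grown from the condylar fibrocartilage of the goat temporomandibular joint (TMJ), which was split by digestion into superficial layer cells (SLC) and middle layer cells (MLC). The joints came from female goats aged 6 to 9 months, obtained from abattoirs, and cells were used at passages 3 to 5 in medium with serum. Cells of all 4 groups were given 10 ng IL-1β, a pro-inflammatory cytokine, for 1 h, and the IL-1β + LOXL2 cells of each layer had been transduced overnight with Ad5-LOXL2, an adenovirus carrying the lysyl oxidase-like 2 gene, before that. Each group held 3 libraries. The study's flow cytometry names an empty adenovirus, Ad5-Empty, as the control in such cells, but neither the labels nor the methods for the sequenced cells say whether the libraries of IL-1β alone received it. If they did not, LOXL2 and the virus cannot be told apart. Cells without IL-1β were not analysed here. The labels do not say whether replicates came from separate animals or cultures, so p-values measure the spread among these libraries, which may be technical.

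Library totals ranged from 14158607 to 28931652 counts. The LOXL2 gene, read as a check of the labels, had normalized counts of 11583, 11647 and 11894 in SLC with IL-1β and of 8541, 10124 and 10387 in the SLC libraries labelled IL-1β + LOXL2. In MLC it had 14291, 16294 and 15189 normalized counts with IL-1β and 15249.9, 14740.4 and 13808 in those labelled IL-1β + LOXL2. It was thus not higher under the LOXL2 label in either layer, although its log2 fold change of -0.27 (SLC) and -0.07 (MLC) turned to 0.14 and 0.21 once a trend of fold change with gene span, described below, was removed. The sources used here do not say whether transcripts from the adenovirus would map to the LOXL2 row, so these values do not settle the labels, and every statement on LOXL2 below rests on them. The chondrocyte gene COL2A1 was at 0 in all 3 SLC IL-1β libraries and averaged 309.8 normalized counts in MLC with IL-1β, while ACAN averaged 894 and 7451. COL11A1 of the same list went the other way, at a mean of 23200 in SLC and 22229 in MLC. Summed chondrocyte markers with IL-1β were 1340 to 1457 CPM in SLC and 1765 to 1926 CPM in MLC. With IL-1β + LOXL2 they were 700 to 1357 CPM and 1454 to 1868 CPM. Fibroblastic markers, COL1A1 among them, summed far higher, to between 58622 and 76349 CPM in the 12 libraries. The summed markers of superficial cells were also higher in MLC, against the layer's label. With IL-1β the sum was 2752 to 3046 CPM in MLC against 1609 to 1780 CPM in SLC. TNC, the largest part, had a mean of 45017 against 20561 normalized counts, and PRG4, the lubricin gene, 111 against 82.7. THY1 of the same list went the other way, at a mean of 5363 in MLC against 8194 in SLC. With IL-1β + LOXL2 the sum was 2068 to 2708 CPM in MLC, below all its IL-1β libraries. In SLC it was 1065 to 1619 CPM. THY1 was higher with IL-1β + LOXL2, at a mean of 7096 in MLC and 11093 in SLC. The part of these markers in the results was not tested. Summed markers of immune cells stayed between 6.41 and 13.5 CPM in the 12 libraries, those of endothelial cells at or under 5.22 CPM, those of adipocytes at or under 3.73 CPM and those of muscle at or under 1.34 CPM. Replicate 1 of SLC IL-1β + LOXL2 stood apart from the other pair of its group, with a chi-square per degree of freedom of 159 and 58.1 against 29.2, and so did replicate 1 of MLC IL-1β + LOXL2, with 15.2 and 33.9 against 5.81. Values without either are given where they change a result.

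ATP7A, the exporting ATPase mutated in Menkes disease, had the largest difference of the 6 genes in both layers. In SLC it had 358, 543 and 337 normalized counts in the 3 IL-1β libraries and 179.5, 23.3 and 47.3 under the label IL-1β + LOXL2. In MLC the values were 403, 314 and 382 with IL-1β and 165, 60.9 and 47.4 with IL-1β + LOXL2. The groups of ATP7A, which was picked for its fall, did not overlap in either layer. Non-overlap held for 49% of all genes in SLC and 41.4% in MLC. The first IL-1β + LOXL2 replicate was the one nearest the IL-1β libraries in both layers. In bulk RNA, fewer cells of a type and less RNA per cell cannot be told apart.

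The SLC means of ATP7A were 413 ± 113 and 83.4 ± 84.1 normalized counts (SD, n = 3), and the log2 fold change was -2.32 with a standard error of 0.65. In MLC they were 366 ± 46.4 and 91.1 ± 64.4 (SD, n = 3), and the log2 fold change was -1.98 with a standard error of 0.33. The corresponding folds were 4.98 in SLC and 3.95 in MLC, lower under the LOXL2 label. The fold change was the 7th lowest of 14103 genes tested in SLC and the 6th lowest of 13664 in MLC, a description for a gene picked for its fall. Without the first IL-1β + LOXL2 replicate of the layer it was -3.58 in SLC and -2.77 in MLC on the log2 scale.

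**Figure D1:**
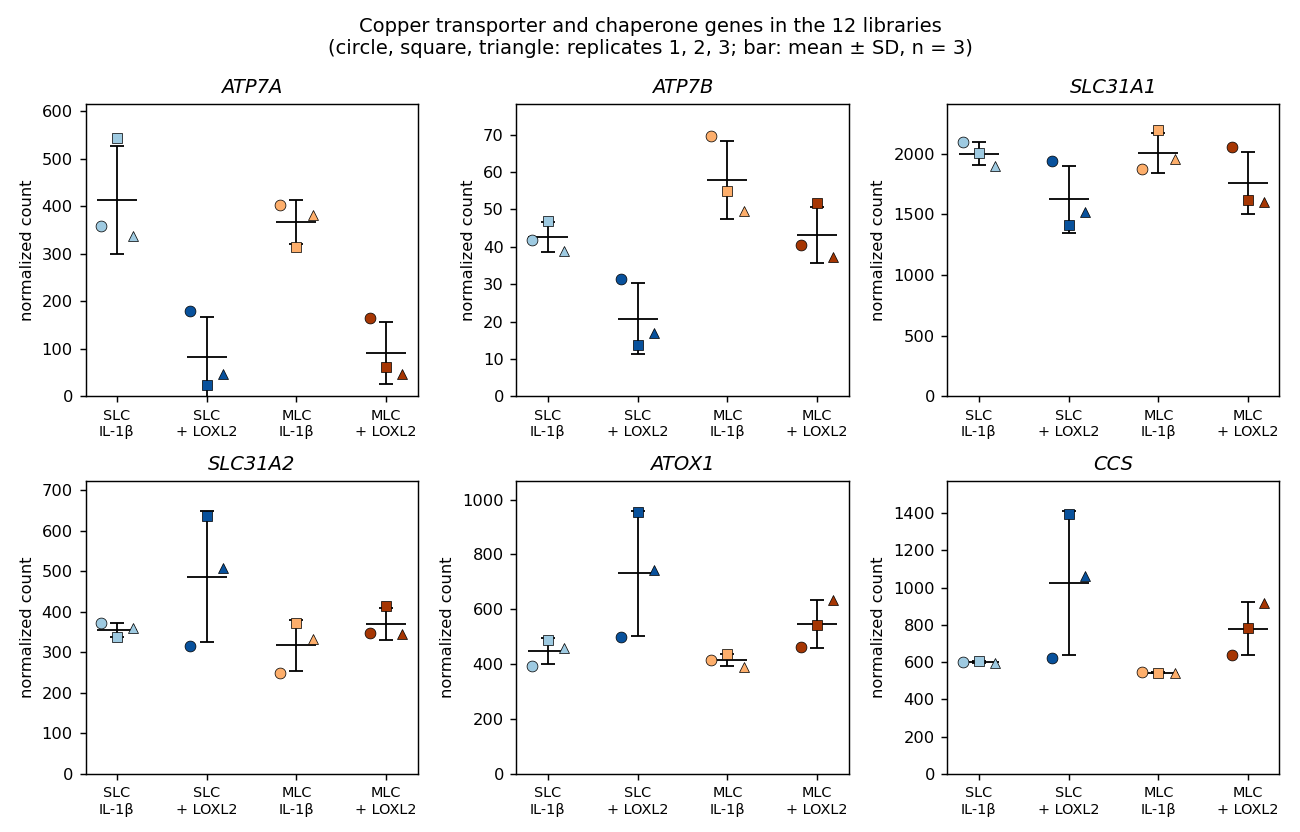
Normalized counts (y axis, each from 0) of the 6 genes in the 12 libraries, by layer and treatment on the x axis. Points are replicates 1 (circle), 2 (square) and 3 (triangle), and bars are mean ± SD of 3 libraries. ATP7A lies between 314 and 543 in the IL-1β libraries and between 23.3 and 179.5 in those labelled IL-1β + LOXL2.

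ATP7B, the related ATPase mutated in Wilson disease, had the fewest reads of the 6 genes. In SLC it had 41.8, 46.8 and 38.9 normalized counts with IL-1β and 31.5, 13.7 and 16.9 with IL-1β + LOXL2. In MLC it had 69.5, 54.8 and 49.5 with IL-1β and 40.5, 51.6 and 37.3 with IL-1β + LOXL2. The SLC groups did not overlap and the MLC groups did. In SLC this gave a log2 fold change of -1.04 with a standard error of 0.34 and in MLC one of -0.44 with a standard error of 0.24. The quasi-likelihood test of edgeR, adjusted over all genes tested, gave adjusted p = 0.0737 and 0.188.

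SLC31A1, the high-affinity copper importer, and SLC31A2 (CTR2), a related protein of endosomes and lysosomes, had no call in either layer. SLC31A1 had 2093, 2004 and 1903 normalized counts in SLC with IL-1β and 1938, 1412 and 1523 with IL-1β + LOXL2. In MLC it had 1871, 2192 and 1957 against 2052, 1619 and 1599. The first replicate of IL-1β + LOXL2 kept both pairs of groups overlapping. On the log2 scale the change was -0.29 in SLC (95% interval of the fold 0.649 to 1.02) and -0.19 in MLC (0.738 to 1.03), with edgeR adjusted p = 0.143 and 0.215.

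SLC31A2 had 372, 338 and 359 normalized counts in SLC with IL-1β and 315, 637 and 509 with IL-1β + LOXL2. In MLC it had 248, 371 and 333 against 348, 414 and 345. The groups overlapped in both layers. On the log2 scale it changed by 0.46 in SLC (95% interval of the fold 0.934 to 2.02) and 0.21 in MLC (0.921 to 1.46), with edgeR adjusted p = 0.172 and 0.320.

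The cytosolic chaperones ATOX1 and CCS lay higher under the LOXL2 label in every library of both layers, and rose past the threshold in MLC. ATOX1, which carries copper to the 2 ATPases, had 394, 488 and 459.8 normalized counts in SLC with IL-1β and 498, 954 and 744 with IL-1β + LOXL2. In MLC it had 416, 436 and 391 against 461, 543 and 634. The lowest IL-1β + LOXL2 library was the first replicate in both layers, just above the highest IL-1β library. In MLC the log2 fold change was 0.40 (standard error 0.13, edgeR adjusted p = 0.0462), and in SLC it was 0.71 (standard error 0.23, edgeR adjusted p = 0.0731).

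CCS, the copper chaperone for superoxide dismutase, had 601, 606 and 597 normalized counts in SLC with IL-1β and 619, 1393 and 1060.1 with IL-1β + LOXL2. In MLC it had 546, 539 and 542 against 636, 781 and 919. The IL-1β libraries of each layer lay close together, and the spread came from the libraries labelled IL-1β + LOXL2. In MLC the log2 fold change was 0.52 (standard error 0.13, edgeR adjusted p = 0.0238), and in SLC it was 0.77 (standard error 0.26, edgeR adjusted p = 0.0780).

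Among the 5 genes other than ATP7A, 2 were called in MLC, both higher, where 21.6% of all 13664 genes tested were called and 9.81% were called higher. In SLC 0 of the 5 were called by edgeR, and 0% of all 14103 genes were. At an unadjusted p under 0.05, 3 of the 5 passed in SLC (ATOX1 and CCS higher, ATP7B lower) with 43.3% of all genes, and the same 3 passed with DESeq2's Wald test, with 29.4% of all genes. The groups of 3 of the 5 genes did not overlap in SLC, where this held for 49% of genes, and of 2 of the 5 in MLC, where it held for 41.4%. With DESeq2, ATOX1 and CCS were again the 2 called in MLC, with 25.8% of all genes.

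The call of ATOX1 and CCS in MLC was lost without any 1 of the 3 IL-1β libraries or without replicate 2 or 3 of IL-1β + LOXL2, with adjusted p up to 0.183 and 0.108 (edgeR). Calls over all genes fell in the same fits. They were 0 without IL-1β replicate 1 or 3 or IL-1β + LOXL2 replicate 2. Without IL-1β replicate 2 they were 822 of 13824, and without IL-1β + LOXL2 replicate 3 they were 474 of 13834. Leaving out replicate 1 of IL-1β + LOXL2, 5 of the 5 genes passed in SLC, with 61.7% of all genes, and 3 of the 5 in MLC, where SLC31A1 joined with a log2 fold change of -0.32 and 48.1% of all genes passed. In a fit on all 12 libraries, which share 1 estimate of the spread, 3 of the 5 passed in SLC (ATP7B, ATOX1 and CCS), with 41% of all genes, and 0 of the 5 in MLC, with 0% of all genes.

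**Figure D2:**
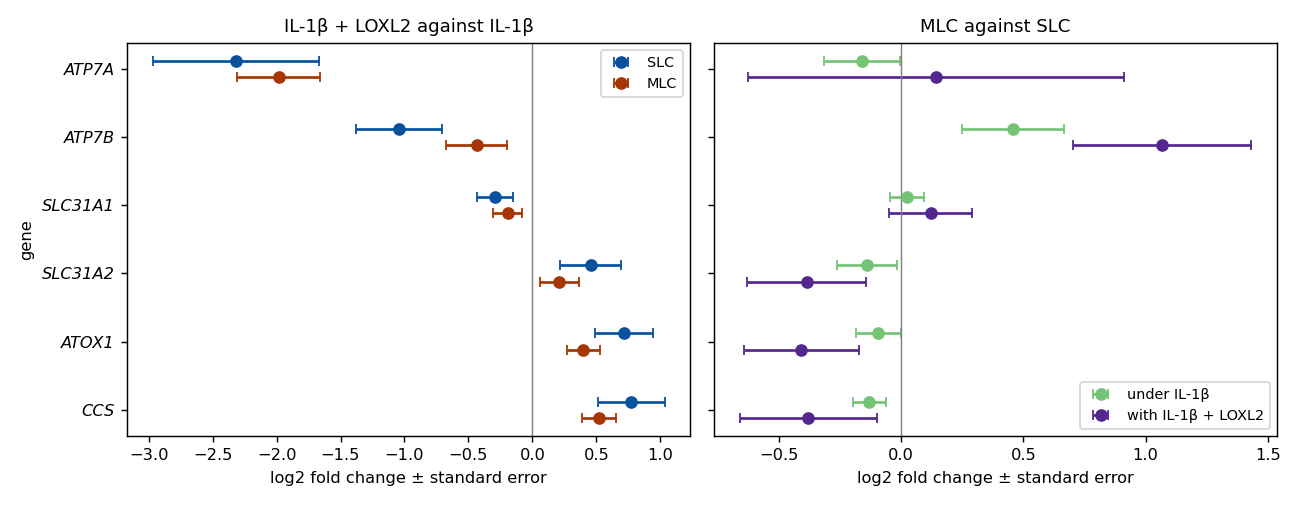
Log2 fold change ± standard error (x axis) of each of the 6 genes (y axis), from edgeR on 3 libraries per group. Left, IL-1β + LOXL2 against IL-1β in SLC (blue) and MLC (brown), from -2.32 for ATP7A to 0.77 for CCS in SLC. Right, MLC against SLC under IL-1β (green) and with IL-1β + LOXL2 (purple), where ATP7B lies highest at 0.46 and 1.07.

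A test of whether the LOXL2 difference itself differed between the layers found 0 of the 5 genes and 0% of the 14534 genes tested by edgeR, with 0 of the 5 and 2.26% of all genes at an unadjusted p under 0.05, and with 0 of the 5 and 0% with DESeq2. The difference of log2 fold changes, MLC minus SLC, was 0.60 for ATP7B (95% interval -0.26 to 1.47), 0.09 for SLC31A1 (-0.31 to 0.49), -0.26 for SLC31A2 (-0.93 to 0.42), -0.33 for ATOX1 (-0.95 to 0.28) and -0.27 for CCS (-0.96 to 0.43). The narrowest of these intervals, for SLC31A1, allowed folds from 0.807 to 1.40. For ATP7A the value was 0.32 (standard error 0.81).

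The 2 directions moved together from library to library. ATP7A counted against ATOX1 in the same library, a ratio that library scaling does not touch, was 90.9, 111 and 73.4 per 100 ATOX1 reads in SLC with IL-1β and 36.1, 2.45 and 6.35 with IL-1β + LOXL2. In MLC it was 96.8, 72.1 and 97.8 against 35.8, 11.2 and 7.47. This is a description, as ATP7A was picked for its fall, and it says nothing of which gene had more transcripts. The ratio of SLC31A2 to SLC31A1 was 16.8 to 18.9 per 100 in SLC with IL-1β and 16.2, 45.1 and 33.4 with IL-1β + LOXL2. In MLC this ratio was 13.3, 16.9 and 17.00 against 16.98, 25.6 and 21.6. Replicates 2 and 3 of IL-1β + LOXL2 thus lay above the IL-1β range in both layers. The first replicate lay below that range in SLC and within it in MLC. CCS per 100 reads of its client SOD1 was 28.3 to 33.9 in SLC with IL-1β and 31.9, 51.5 and 42.1 with IL-1β + LOXL2, which overlapped. In MLC it was 15.4, 17.35 and 16.6 against 17.42, 21.0 and 20.9, without overlap but with the first IL-1β + LOXL2 replicate close to the highest IL-1β library.

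Over the 12 libraries, the Pearson correlation of log2 normalized counts with ATP7A was 0.90 for SLC31A1, 0.73 for ATP7B, -0.74 for SLC31A2, -0.90 for ATOX1 and -0.94 for CCS. ATOX1 and CCS correlated with each other at 0.98. These are descriptions over libraries that share depth and the 4 groups, and close correlation with ATP7A was common. Of 14534 genes, 1463 had a correlation above 0.9 and 1406 below -0.9. The 5 named genes most like ATP7A were VANGL1 (0.997), CDK14 (0.996), ZBTB38 (0.996), RALGAPB (0.996) and ROCK2 (0.994). Their log2 fold changes ran from -1.39 for VANGL1 to -0.65 for CDK14 in SLC and from -1.12 to -0.49 in MLC. These were smaller than that of ATP7A, a description, as ATP7A was picked for its fall in the same libraries.

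**Figure D3:**
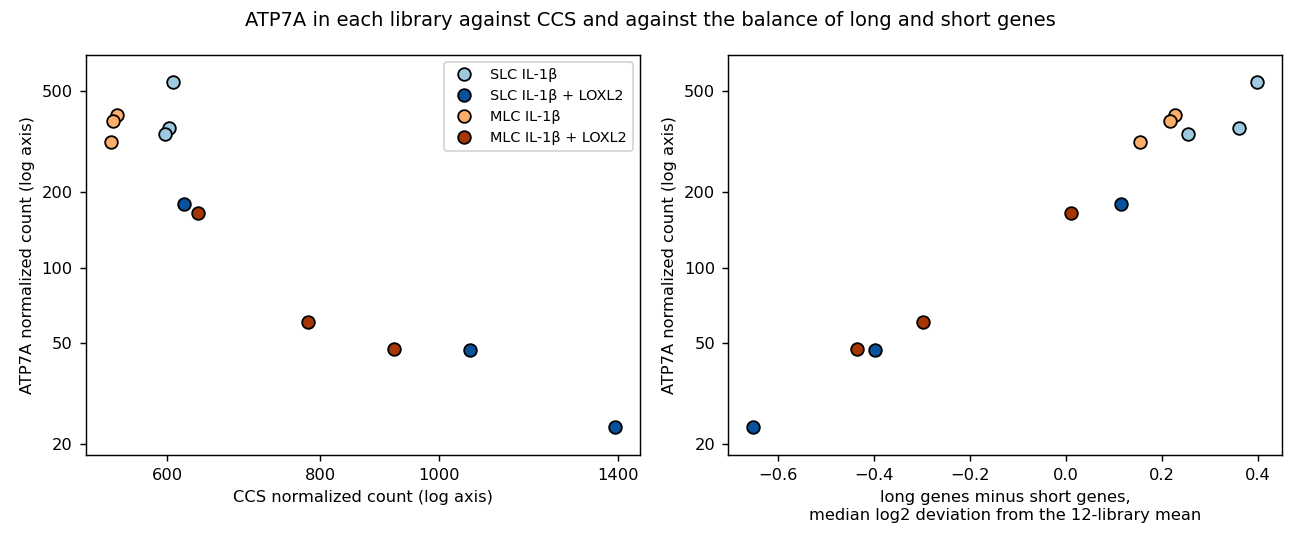
ATP7A normalized count (y axis, log scale) in the 12 libraries, against the CCS normalized count (left, log scale) and against the balance of long and short genes in the library (right, log2 units). Colours are the 4 groups. The lowest ATP7A library, at 23.3, has the highest CCS count, 1393, and the lowest balance, -0.65.

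The 6 genes differ in genomic span, counted with introns, on the ARS1.2 assembly. ATP7A (chromosome X, 3146014 to 3304897) spans 158.884 kb and holds 2 annotated pseudogenes within its span, which averaged 4.08 reads per library. ATP7B (chromosome 12, 65192400 to 65268970) spans 76.571 kb and SLC31A1 (chromosome 8, 102170616 to 102205739) spans 35.124 kb. ATOX1 (chromosome 7, 47445831 to 47471434) spans 25.604 kb, CCS (chromosome 29, 45020191 to 45034130) 13.94 kb and SLC31A2 (chromosome 8, 102098237 to 102106656) 8.42 kb. All are annotated as protein-coding, and no other gene overlaps the last 5.

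The 3 genes of longer span had negative fold changes and the 3 of shorter span positive ones in both layers, and the same order ran through the whole table. ATP7A, the longest of the 6, was picked for its fall, so the order of the 6 is a description. Across all genes with a known span, which are not independent replicates, Spearman's rho of log2 fold change with span was -0.49 in each layer. Genes under 10 kb had a median log2 fold change of 0.37 (SLC) and 0.23 (MLC), and genes of 80 to 160 kb, the class of ATP7A, one of -0.37 and -0.27. Within that class ATP7A was the 3rd lowest of 1456 genes in SLC and the lowest of 1444 in MLC. These ranks too are a description, as a low rank follows from how ATP7A was picked.

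The balance of long and short genes, taken in each library as the median log2 deviation from the 12-library mean of genes of 80 to 160 kb minus that of genes under 20 kb, was 0.36, 0.40 and 0.25 in SLC with IL-1β and 0.12, -0.65 and -0.40 with IL-1β + LOXL2. In MLC it was 0.23, 0.15 and 0.22 against 0.01, -0.30 and -0.44. It moved with the treatment label and, again, the first IL-1β + LOXL2 replicate was nearest the IL-1β libraries. With the trend on span removed in each library, the log2 fold change of ATP7A was -2.01 (SLC) and -1.73 (MLC), while ATP7B went to -0.74 and -0.21 and SLC31A2 to 0.23 and 0.07. ATOX1 was at 0.42 (edgeR adjusted p = 0.0409) and CCS at 0.45 (adjusted p = 0.0275) in MLC after the same removal, and both stayed past the threshold. Over all genes, 2003 of 13664 were called in that fit, 1065 of them higher.

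**Figure D4:**
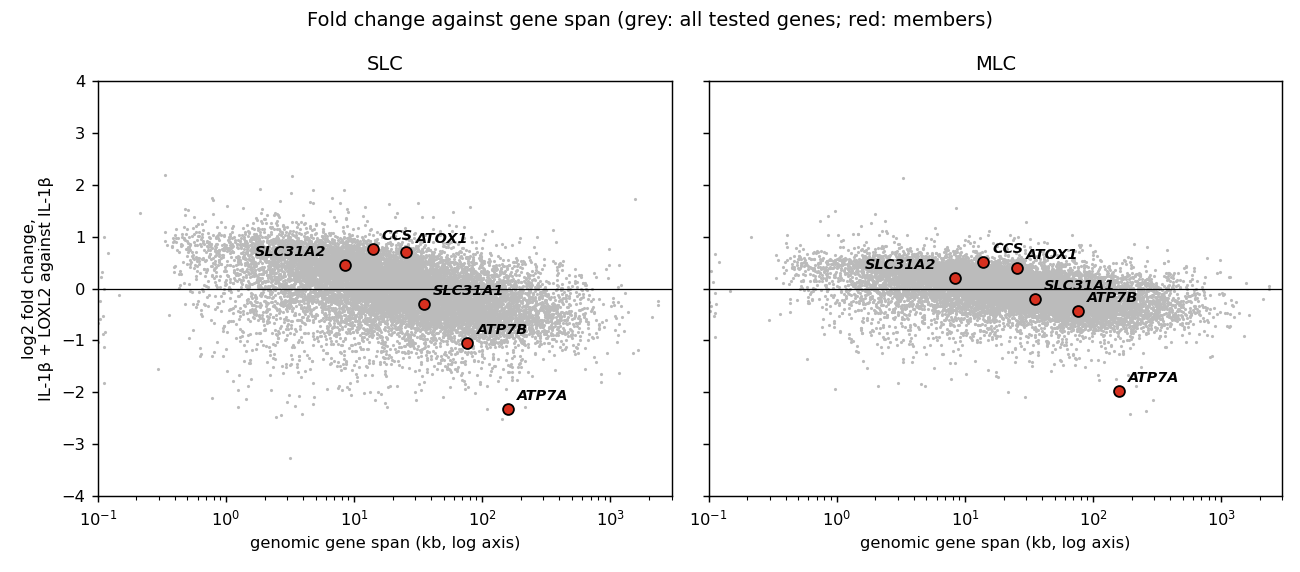
Log2 fold change of IL-1β + LOXL2 against IL-1β (y axis) against genomic span in kb (x axis, log scale) for SLC (left) and MLC (right). Grey points are the tested genes and red points the 6 copper genes, which run from 8.42 kb for SLC31A2 to 158.884 kb for ATP7A.

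Between layers under IL-1β alone, edgeR called 0 of the 6 genes, where 46.9% of 13965 genes were called. Of the 6, 1 gene, ATP7B, passed at an unadjusted p under 0.05, with 53.6% of all genes, and 0 with DESeq2, with 41.6%. The fold of MLC over SLC had a 95% interval of 0.712 to 1.13 for ATP7A (log2 fold change -0.16), 0.918 to 1.13 for SLC31A1 (0.03), 0.756 to 1.09 for SLC31A2 (-0.14), 0.816 to 1.08 for ATOX1 (-0.09) and 0.825 to 1.01 for CCS (-0.13). For ATP7B it ran from 1.01 to 1.87 (log2 fold change 0.46, edgeR adjusted p = 0.0871). The layer groups of ATP7B and CCS did not overlap, which held for 56.1% of all genes. With the span trend removed CCS passed at a log2 fold change of -0.20 (edgeR adjusted p = 0.0249), with 47.2% of all genes. The layers were deposited in separate tables, so layer cannot be told apart from anything else that differed between them.

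With IL-1β + LOXL2, 0 of the 6 genes were called by edgeR between the layers, where 16.1% of 14085 genes were. ATP7B alone passed at an unadjusted p under 0.05, with 29.6% of all genes, and 0 passed with DESeq2, with 20.5%. ATP7B was higher in MLC in every library (37.3 to 51.6 against 13.7 to 31.5 normalized counts), and non-overlap held for 35.1% of genes. Its log2 fold change was 1.07 (standard error 0.36, edgeR adjusted p = 0.0934). The labels do not say that libraries of the same replicate number belong together. With the number as a block, tried as an alternative, the log2 fold change of ATP7B was 1.10 (edgeR adjusted p = 0.0473, with 27.6% of genes called). Leaving out replicate 1 of SLC IL-1β + LOXL2, 4 of the 6 genes passed, ATP7B higher in MLC and CCS, ATOX1 and SLC31A2 lower, with 32.9% of all genes. ATP7A had a log2 fold change of 0.14 with a wide 95% interval of the fold, 0.319 to 3.82.

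The enzymes that receive copper in the secretory pathway had another pattern. Under IL-1β, 8 of the 9 tested apart from MOXD1 differed between layers by edgeR, 6 higher in MLC and 2 lower (24.2% and 22.7% of all genes were), with a median log2 fold change of 0.40 against -0.0069 over all genes. LOX, the first described lysyl oxidase, had 23975 to 26383 normalized counts in SLC and 11207 to 11421 in MLC (log2 fold change -1.13, edgeR adjusted p = 2.5e-09). SOD3, the extracellular superoxide dismutase, was also lower in MLC, at -0.76 (adjusted p = 2.6e-05). LOXL1, LOXL2, LOXL3 and LOXL4 were higher in MLC by 0.47, 0.40, 0.19 and 1.48 on the log2 scale, as were PAM, which amidates peptide ends, by 0.64, and the plasma ferroxidase CP by 2.43. MOXD1, a monooxygenase-like protein, had at most 0.973 normalized counts in SLC and 94.0 to 123 in MLC, and is left out of these counts because it passed the filter on low counts through MLC alone.

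Between treatments none of the 10 secretory enzymes was called in MLC by edgeR (1 higher and 3 lower at an unadjusted p under 0.05, which 39.3% of all genes passed, and 0 higher and 1 lower with DESeq2). LOX had 11421, 11207 and 11249 normalized counts in MLC with IL-1β and 10867, 8666 and 8069.9 with IL-1β + LOXL2, without overlap, at a log2 fold change of -0.30 (edgeR adjusted p = 0.0593). In SLC its log2 fold change was -0.69 (edgeR adjusted p = 0.0706). LOXL2 was at -0.27 in SLC and -0.07 in MLC, and turned to 0.14 and 0.21 with the span trend removed. SOD3 was at 0.48 in SLC (edgeR adjusted p = 0.0706) and at 0.09 in MLC, which turned to -0.068 with the span trend removed.

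Of 7 tested genes for intracellular copper clients and assembly factors, 2 rose in MLC and 0 fell with IL-1β + LOXL2, where 9.81% and 11.8% of all genes did. CMC1 and CMC2, small mitochondrial proteins of cytochrome oxidase assembly, rose by 0.75 (edgeR adjusted p = 0.0214) and 0.55 (adjusted p = 0.0306) on the log2 scale. CMC1 had 206, 235 and 197 normalized counts with IL-1β and 269, 357 and 449 with IL-1β + LOXL2. SOD1, the client of CCS, had a log2 fold change of 0.24 in MLC (edgeR adjusted p = 0.0900) and 0.33 in SLC (adjusted p = 0.124). Between layers under IL-1β SOD1 was higher in MLC by 0.82 (edgeR adjusted p = 6.7e-07), while CCS was at -0.13.

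Of 12 tested genes of copper handling and storage, 3 rose and 2 fell in MLC, against 9.81% and 11.8% of all genes. CUTA (0.60, edgeR adjusted p = 0.0199), COMMD1, which takes part in the trafficking of the copper ATPases (0.49, adjusted p = 0.0336), and AP1S1, an adaptor subunit of Golgi sorting (0.36, adjusted p = 0.0386), rose. XIAP, an apoptosis inhibitor that binds copper and acts on CCS (-0.56, edgeR adjusted p = 0.0238), and MTF1, the metal-responsive transcription factor (-0.43, adjusted p = 0.0239), fell. CUTA had 1092, 1214 and 1094 normalized counts in MLC with IL-1β and 1394, 1790.1 and 1985 with IL-1β + LOXL2, and XIAP had 733, 736 and 783 against 638, 482 and 413. With the span trend removed MTF1 was at -0.28 (edgeR adjusted p = 0.0654) and no longer past the threshold. No metallothionein was tested in MLC. MT3, at 1.22 to 11.9 normalized counts there, did not pass the filter on low counts, and MT4 was at 0 in all 12 libraries. MT1, MT2A and the other metallothioneins were not analysed here.

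Of 11 tested genes tied to cuproptosis, the copper-dependent death that acts through lipoylated mitochondrial enzymes, 0 rose and 1 fell in MLC, against 9.81% and 11.8% of all genes. The fallen gene was PDHA1, a pyruvate dehydrogenase subunit (-0.71, edgeR adjusted p = 0.0395). It had 538, 375 and 553 normalized counts in MLC with IL-1β and 417, 267 and 209 with IL-1β + LOXL2, and the groups overlapped. FDX1, the reductase that gives the pathway its copper sensitivity, was at 0.34 in MLC and 0.63 in SLC without a call. All MLC calls of these lists were lost where no gene of the whole table was called, namely with all 12 libraries, without IL-1β replicate 1 or 3, or without IL-1β + LOXL2 replicate 2. Leaving out 1 library at a time, edgeR called CUTA in 3 of 6 fits, CMC1 in 2, and XIAP and MTF1 in 1 each, with adjusted p up to 0.111, and up to 0.177 with all 12 libraries. Over all genes, 6653 of 13838 were called without IL-1β + LOXL2 replicate 1. Without IL-1β replicate 2 it was 822 of 13824, and without IL-1β + LOXL2 replicate 3 it was 474 of 13834. CMC2, COMMD1, AP1S1 and PDHA1 were not followed through the fits leaving out 1 library or removing the span trend.

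In SLC 0 genes of these 4 lists were called by edgeR. At an unadjusted p under 0.05 the SLC counts were 1 higher and 3 lower of 9 secretory enzymes, 4 and 0 of 7 clients, 5 and 3 of 13 handling genes and 4 and 1 of 11 cuproptosis genes, where 43.3% of all genes passed. With DESeq2 they were 1 and 2, 2 and 0, 4 and 2, and 2 and 1, where 29.4% did.

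**Figure D5:**
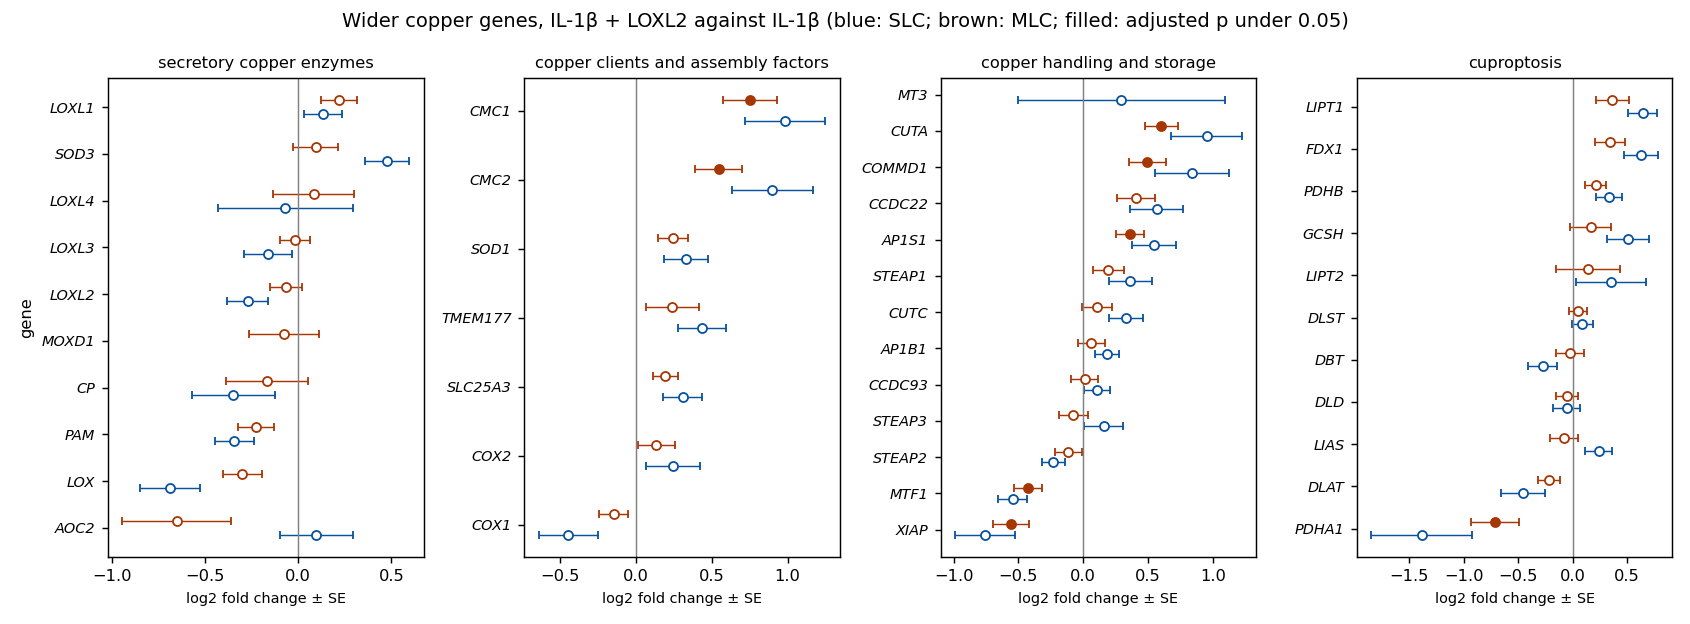
Log2 fold change ± standard error (x axis) of IL-1β + LOXL2 against IL-1β for the genes (y axis) of 4 wider copper lists, in SLC (blue) and MLC (brown). Filled points have an edgeR adjusted p under 0.05. Filled points are seen in MLC alone, 2 among clients, 5 among handling genes and 1 among cuproptosis genes.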

How the data were processed

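Raw read counts for each gene were deposited by the authors, 1 table per layer. Per the submitters' processing notes and the study's methods, reads were mapped with HISAT2 to the goat genome ARS1.2 and counted with featureCounts. Settings for strand and for reads mapping to several genes are not given in the sources used here. The labels name an RNeasy kit and the paper TRIzol.

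The members and gene lists were chosen with earlier results of these data known. Genes were tested on all rows with the quasi-likelihood test of edgeR 4.0.16 (R 4.3.3) after TMM scaling and filterByExpr (at least 10 counts in enough libraries, 15 in all), in the 6 libraries of each comparison and, for the interaction, in all 12. P-values were adjusted by Benjamini-Hochberg over all genes tested, with a threshold of 0.05, and the standard error is the size of the log2 fold change over the root of its F. Normalized counts used the size factors of DESeq2 1.42.0 over the 12 libraries. Correlations used log2 normalized counts with a prior of 0.5. Spans, including introns, came from the RefSeq annotation of ARS1.2, and transcript lengths were not used. The tests were tried on simulated counts with the same spread for all genes, no span trend and no outlying library. All 200 changed genes were recovered, with 8 to 13 false calls per comparison. This does not show how the tests perform on the libraries here.

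Named were all members, LOX, LOXL2, SOD1, SOD3, the 4 list genes of smallest adjusted p in MLC, and the 5 genes most like ATP7A, while other list genes were named after their values were seen. The labels do not say that libraries of the same replicate number belong together, so the replicate block is an alternative only. Between layers with IL-1β + LOXL2, deviations of same-numbered libraries correlated at 0.547 for replicate 1 and at 0.174 and 0.126 for the others. In the other comparisons all pairs were below 0.1, from -0.198 to 0.0942. All pairs of replicates differed by more than counting error (lowest chi-square per degree of freedom 2.23). A gene of the cuproptosis list is not reported here.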

Additional observations from a re-analysis of the deposited data

How the results depend on the processing

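Alternatives tried were the scaling of DESeq2, no filter, a filter of 10 counts in each library, the Wald test of DESeq2, a replicate block, a fit on all 12 libraries (already used for the interaction), the gene-span trend removed, a minimum size of 1 on the log2 scale, and each library left out. The number of the 5 genes called in SLC, 0, became 3 with DESeq2 and 3 with all 12 libraries, and 0 to 5 leaving out 1 library. In MLC, 2 became 0 at the minimum size of 1, 0 with all 12 libraries (adjusted p = 0.217 for ATOX1 and 0.185 for CCS, edgeR), and 0 to 3 leaving out 1 library. Over all genes, leaving out 1 library gave 0 to 8849 calls in SLC and 0 to 6653 in MLC. Between layers under IL-1β, 0 of 6 became 1 with the span trend removed (CCS, -0.20, adjusted p = 0.0249, edgeR) and stayed 0 leaving out 1 library. With IL-1β + LOXL2, 0 of 6 became 1 (ATP7B) with the block, with all 12 libraries and with the span trend removed. Over all genes the calls there rose from 2268 of 14085 to 3887 of 14085, 4199 of 14534 and 3015 of 14085. Leaving out 1 library gave 0 to 4 of the 6. With the replicate block the member counts were 0 in SLC, 2 in MLC and 0 for the interaction, which stayed 0 under every alternative. Between layers they were 0 under IL-1β and 1 with IL-1β + LOXL2. Over all genes the block called 0 in SLC, 4053 of 13664 in MLC and 5816 of 13965 between layers under IL-1β. The log2 fold change of ATP7A ranged from -3.58 to -1.86 in SLC and from -2.77 to -1.65 in MLC leaving out 1 library.

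Signs turned with the span trend removed for LOXL2 (0.14 in SLC and 0.21 in MLC) and SOD3 (-0.068 in MLC). Leaving out 1 library turned ATP7A to 0.090 (range -0.28 to 0.090), SLC31A1 to -0.0060 and -0.043 (range -0.043 to 0.075) and SLC31A2 to 0.0068 (range -0.27 to 0.0068) between layers under IL-1β, ATP7A to -0.30, -0.13 and -0.61 (range -0.61 to 1.42) with IL-1β + LOXL2, and in the interaction SLC31A1 to -4.06e-04 and -0.032 (range -0.032 to 0.23) and CCS to 0.021 (range -0.53 to 0.021). The causes were not tested. Groups of 3 libraries and, for ATP7B, low counts limit the precision.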

Other observations

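Genes next to ATP7A on chromosome X were not alike. ATRX, a chromatin remodeller with a span of 235 kb (2844617 to 3079823), changed by -2.01 (SLC) and -1.52 (MLC) on the log2 scale with IL-1β + LOXL2. MAGT1, a magnesium transporter between the 2 genes, spans 29.6 kb and was at -0.17 and -0.07, and PGK1, a glycolytic kinase on the other side, spans 22.7 kb and was at 0.07 and 0.11. On chromosome 8, SLC31A1 and SLC31A2 lie on either side of FKBP15 (0.14 in SLC and -0.03 in MLC), and CDC26, a subunit of the anaphase-promoting complex next to SLC31A1, was at 0.77 and 0.56. These genes were named after their values were seen.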
